A study of Mus musculus with 6 samples.

Results

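The NF-κB pathway and the cytokines and chemokines that feed it or answer to it were followed through 46 genes of mouse MA-10 Leydig cells. They were 5 REL factors, 6 IκB proteins and other brakes, 3 IκB kinase subunits, 9 genes of TNF and interleukin 1, 9 of the interleukin 6 family, 2 colony-stimulating factors, 8 chemokines and 4 effector genes. A gene was represented by its brightest probe set over the 6 arrays among those annotated with that symbol alone. All 46 were found, of 24032 genes that could be represented this way. Socs3 was the 1 member with a further probe set.

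MA-10 is a clonal mouse Leydig tumour line that makes steroids, so all 6 arrays come from 1 cell line. The cells received an siRNA against COUP-TFII, the orphan nuclear receptor encoded by Nr2f2 (3 arrays), or a control siRNA (3 arrays). Both groups were transiently transfected for 48 h in the same serum-containing medium, and no cytokine or other stimulus is named in the labels. The labels call the 3 arrays of a group biological replicates and say nothing further of the cultures, so p-values measure the spread between these arrays.

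NF-κB is a family of REL-domain transcription factors held in the cytoplasm by IκB proteins until the IκB kinase complex marks these for destruction, as happens downstream of the receptors of TNF and interleukin 1. Its targets include its own inhibitors, cytokines and chemokines. The interleukin 6 family of cytokines signals mainly through the shared receptor subunit gp130 to the transcription factor STAT3. In the testis, macrophages lie beside Leydig cells, and TNF and interleukin 1 are known to lower Leydig cell steroid synthesis.

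The values are normalized log2 expression, and array medians were 7.59 to 7.60 in COUP-TFII siRNA cells and 7.56 to 7.57 in control siRNA cells. The depleted gene, Nr2f2, had a value of 8.25, 8.42 and 8.56 in the COUP-TFII siRNA arrays, against 8.98, 8.97 and 9.19 in the control siRNA arrays. No COUP-TFII siRNA array reached the lowest control siRNA array, and Nr2f2 fell by 0.63 (SE 0.09, adjusted p = 0.00802) by limma and stood at 64.4% of control. Its exact permutation p was 0.1, the smallest that 3 arrays against 3 can give, so every call rests on limma with adjustment over 26836 probe sets. No detection calls were given, so the 95th percentile of 1428 genes of olfactory and vomeronasal receptors, which a Leydig cell is not known to use, served as a dim level, at 6.89 on the log2 scale. Of the Leydig cell markers, 8 of 8 measured were above it and 5 were lower after COUP-TFII siRNA. These 5 were Star (-0.78), Cyp11a1 (-0.33), Hsd3b1 (-0.97), Lhcgr (-0.35) and Inha (-0.56). Nr5a1 (-0.02), Gata4 (-0.09) and Cyp17a1 (0.34) were not called. Of the 8 differences 7 lay below 0 and 1 above, with a median of -0.34. The mean level of all 8 was 10.92 to 10.95 in the COUP-TFII siRNA arrays and 11.24 to 11.35 in the control siRNA arrays. In RNA from whole cultures, fewer cells of a type and less RNA per cell cannot be told apart. Of 10 macrophage markers, Cd68 was the 1 above the dim level and 0 were called. Their mean lay at 6.17 to 6.23 in the COUP-TFII siRNA arrays and at 6.14 to 6.18 in the control siRNA arrays. Above the dim level also lay 3 of 6 T cell, 2 of 4 endothelial and 3 of 5 Sertoli markers. The same held for 4 of 5 fibroblast and peritubular and 1 of 2 germ cell markers. The brightest of these markers of other cell types was Cdh5, an endothelial one, at a mean of 11.57 over the 6 arrays. Whether MA-10 cells use these genes was not tested. A level above the dim level was not taken by itself to show that a gene is in use. The part of these marker levels in the results for the 46 genes was not tested.

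Of the 46 genes, 1 rose and 3 fell after COUP-TFII siRNA at an adjusted p under 0.05, and 42 were not called. That is 8.70% of the genes, against 4.63% of all 24032 genes called in either direction. Of all genes 1.6% were called higher and 3.03% lower. All 4 called genes are brighter than the dim level, which makes 4 of 31 there (12.9%), against 7.22% of all genes brighter than it. The interleukin 6 family held 2 of the falls, the oncostatin M receptor gene Osmr and the cytokine gene Lif. The third was Nfkbiz, which encodes the nuclear IκB protein IκBζ, and the gene that rose was Ikbkb, which encodes the kinase subunit IKKβ. Called genes moved by 0.27 to 0.39 on the log2 scale, and the other 42 differed by -0.16 to 0.23. The median difference over the 46 was 0.02, against 0.01 over all genes, and 28 of the 46 lay above 0, against 13524 of the 24032. The sign of this median turned with other scalings of the arrays, to -0.013 with arrays centred on their medians, -0.015 by the quantile method and -0.015 by cyclic loess. The median over all probe sets was then -0.016, -0.0021 and -0.0025 in that order. The median absolute difference was 0.066 for the 46 and 0.068 for all genes. At an unadjusted p under 0.05 stood 21.7% of the 46, against 19.7% of all genes. The groups of arrays did not overlap for 10 of the 46, or 21.7%, against 25.7% of all genes.

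**Figure D1:**
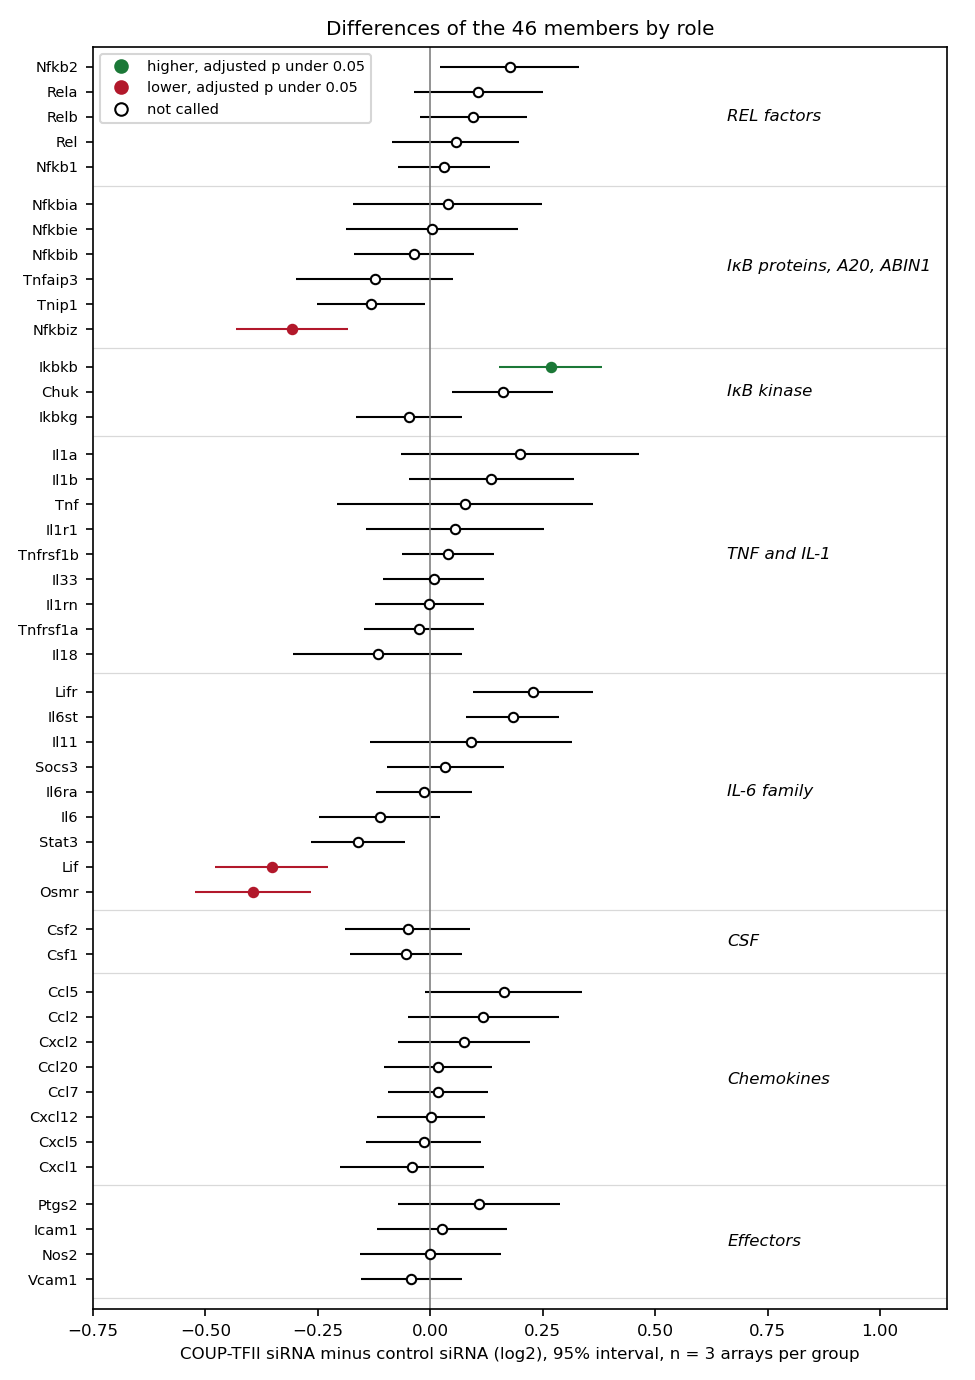
Difference of each of the 46 genes, COUP-TFII siRNA minus control siRNA, in log2 units (horizontal axis), ordered by role; points are limma estimates and lines their 95% intervals, with 3 arrays per group. The 3 filled points left of 0 are Osmr, Lif and Nfkbiz, at -0.39 to -0.31, and the filled point right of 0 is Ikbkb at 0.27.

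The ligands of the set were mostly dim in these cells. Of all genes 61.6% lay above the dim level. Among the 46 genes 31 were above it, namely 7 of 7 receptors, 19 of 20 intracellular and other genes, and 5 of 19 secreted ligands. The 5 ligands were Csf1 (mean 11.12 over 6 arrays), Cxcl1 (7.98), Lif (7.64), Ccl5 (7.25) and Cxcl12 (7.08). Il6, whose product gives the family its name, read 3.98, 3.93 and 3.95 in the COUP-TFII siRNA arrays, against 4.18, 4.04 and 3.98 in the control siRNA arrays. Those groups did not overlap, by a margin smaller than the rounding, but Il6 lay far under the dim level, and its difference of -0.11 (SE 0.06, adjusted p = 0.352) was not called. Probe sets differ in affinity, so levels were compared with this limit and not between genes.

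**Figure D2:**
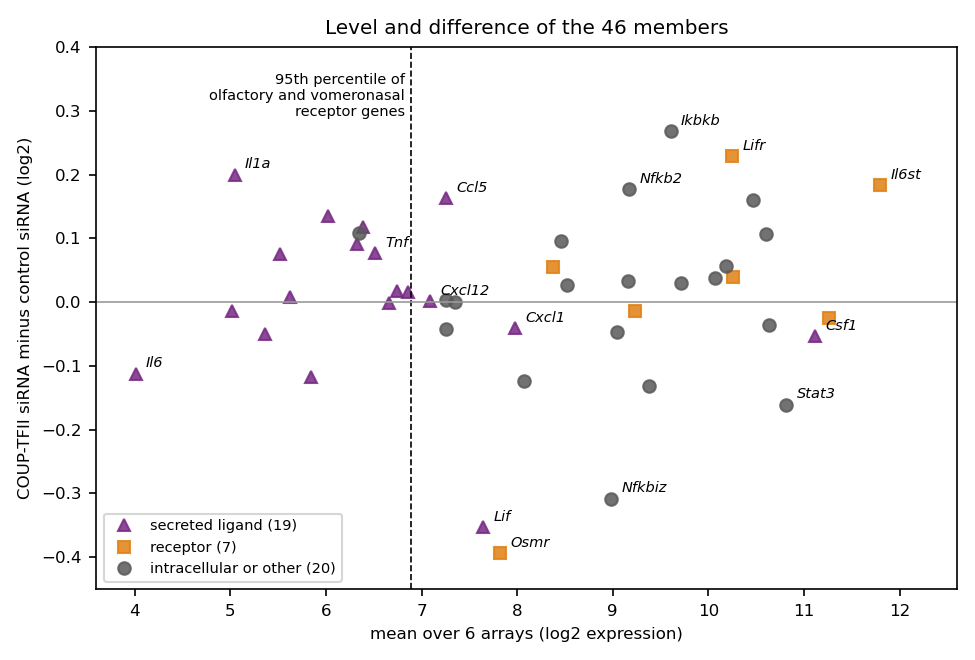
Mean log2 expression over the 6 arrays (horizontal axis) against the difference, COUP-TFII siRNA minus control siRNA, in log2 units (vertical axis), 1 point per gene with the 3 classes told apart by shape; the dashed line is the dim level of 6.89. Receptors and intracellular genes lie to its right, except the intracellular gene Ptgs2, while 14 of 19 ligands lie to its left, and the 4 called genes lie to its right.

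Of the receptor subunits of the interleukin 6 family, Osmr fell, and the other 3, Lifr, Il6st and Il6ra, were not called. Osmr, which encodes the subunit that pairs with gp130 to bind oncostatin M, lies on chromosome 15 band A1 (probe set 10427471) and read 7.58, 7.64 and 7.64 in the COUP-TFII siRNA arrays, against 7.93, 8.10 and 8.01 in the control siRNA arrays. All COUP-TFII siRNA arrays were below all control siRNA arrays, by at least the spread within either group. Osmr fell by 0.39 (SE 0.06, adjusted p = 0.00916) and stood at 76.1% of control, with means of 7.62 ± 0.04 in COUP-TFII siRNA cells and 8.01 ± 0.09 in control siRNA cells (SD, n = 3 each), and its 95% interval was -0.52 to -0.26. It passed the threshold under all 15 alternative settings, with adjusted p between 0.00244 and 0.0462.

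Lifr, the receptor subunit that binds leukaemia inhibitory factor beside gp130, read 10.37, 10.36 and 10.35 in the COUP-TFII siRNA arrays, against 10.10, 10.05 and 10.25 in the control siRNA arrays. Here the COUP-TFII siRNA arrays were the higher ones and hardly differed among themselves, and control siRNA replicate 3 was the nearest to them. The difference of 0.23 (SE 0.06, adjusted p = 0.0681) was not called, but it was called without control siRNA replicate 3 (adjusted p = 0.0481). Il6st, the gene of gp130 itself, read 11.90, 11.91 and 11.87 in the COUP-TFII siRNA arrays, against 11.67, 11.74 and 11.72 in the control siRNA arrays. Its groups did not overlap either, and the difference of 0.18 (SE 0.05, adjusted p = 0.0619) was not called. Under 5 of 15 alternatives Il6st did pass the threshold, with 0.00727 as the lowest adjusted p, and Lifr passed under 3. Il6ra, the subunit that binds interleukin 6, differed by -0.01 (SE 0.05), with an interval of -0.12 to 0.09.

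Osmr and Lifr are neighbours on chromosome 15, with 0 protein-coding genes and 3 other annotated genes between them. They are transcribed away from each other, Osmr from the minus and Lifr from the plus strand, and their first starts lie 255 kb apart in GRCm38.p6.

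Lif, which encodes leukaemia inhibitory factor, lies on chromosome 11 at bands A1-A2 (probe set 10373918) and read 7.40, 7.47 and 7.53 in the COUP-TFII siRNA arrays, against 7.75, 7.84 and 7.88 in the control siRNA arrays. The highest COUP-TFII siRNA array was below the lowest control siRNA array. Lif fell by 0.35 (SE 0.06, adjusted p = 0.0120) and stood at 78.3% of control, with means of 7.47 ± 0.06 in COUP-TFII siRNA cells and 7.82 ± 0.07 in control siRNA cells (SD, n = 3 each). It missed the threshold without control siRNA replicate 3 (adjusted p = 0.0511), without COUP-TFII siRNA replicate 1 (0.0530) and without COUP-TFII siRNA replicate 2 (0.0613). Of the other ligands of the family, Il11 differed by 0.09 (SE 0.10) at a mean of 6.33, under the dim level, where Il6 also lay.

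Downstream of gp130, Stat3 read 10.69, 10.75 and 10.75 in the COUP-TFII siRNA arrays, against 10.86, 10.92 and 10.90 in the control siRNA arrays. The arrays of COUP-TFII siRNA cells were the lower ones without overlap, and the difference of -0.16 (SE 0.05, adjusted p = 0.0928) was not called. Under 2 of 15 alternatives Stat3 did pass the threshold, with 0.0271 as the lowest adjusted p of limma. Socs3, a STAT3 target whose product inhibits gp130 signalling, differed by 0.03 (SE 0.06). Its further probe set, 10383010, differed by 0.00 (SE 0.05).

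**Figure D3:**
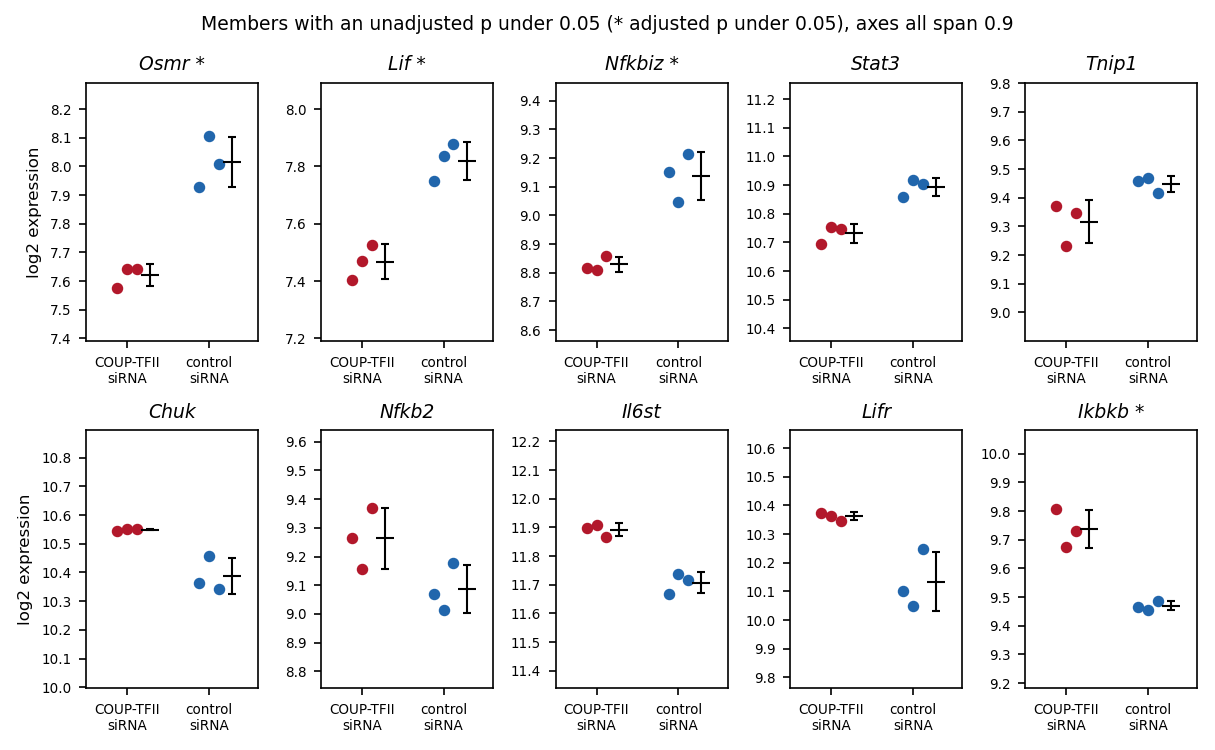
Log2 expression (vertical axes, each spanning 0.9) on each array for the 10 genes of the set with an unadjusted limma p under 0.05, COUP-TFII siRNA in red and control siRNA in blue; bars are mean ± SD of 3 arrays, and an asterisk marks an adjusted p under 0.05. The groups of arrays are apart in 9 of the 10 panels and overlap for Nfkb2, but the genes were picked by that p on the same arrays, which favours separation.

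Among the inhibitors of NF-κB, Nfkbiz was the 1 called. Its product differs from the classical cytoplasmic inhibitors in that it acts in the nucleus, where it helps switch on a subset of NF-κB targets, and it is itself induced by interleukin 1. Nfkbiz (probe set 10439936) read 8.82, 8.81 and 8.86 in the COUP-TFII siRNA arrays, against 9.15, 9.05 and 9.21 in the control siRNA arrays. The 3 COUP-TFII siRNA arrays lay close together and below every control siRNA array. The gene fell by 0.31 (SE 0.05, adjusted p = 0.0196) and stood at 80.8% of control, with means of 8.83 ± 0.03 in COUP-TFII siRNA cells and 9.14 ± 0.08 in control siRNA cells (SD, n = 3 each). It was called under 9 of 15 alternatives and in 1 of 6 with an array left out. Adjusted p was 0.0767, 0.0856 and 0.0566 without COUP-TFII siRNA replicates 1, 2 and 3, and 0.0535 and 0.0702 without control siRNA replicates 1 and 3. With all 35556 probe sets in the fit it was 0.0609.

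Tnip1, which encodes ABIN1, an adaptor that works with the ubiquitin-editing enzyme A20, read 9.37, 9.23 and 9.35 in the COUP-TFII siRNA arrays, against 9.46, 9.47 and 9.42 in the control siRNA arrays. Its COUP-TFII siRNA arrays were lower without overlap, and the difference of -0.13 (SE 0.05, adjusted p = 0.217) was not called. Tnfaip3, the gene of A20, differed by -0.12 (SE 0.08) with overlapping groups. The classical cytoplasmic inhibitors were close to 0, with 0.04 (SE 0.09) for Nfkbia (IκBα), -0.04 (SE 0.06) for Nfkbib (IκBβ) and 0.00 (SE 0.08) for Nfkbie (IκBε). The intervals of these 3 lay between -0.19 and 0.25, so a difference of the size seen for Nfkbiz lies outside each of them.

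Of the IκB kinase subunits, Ikbkb (probe set 10577560) read 9.81, 9.67 and 9.73 in the COUP-TFII siRNA arrays, against 9.47, 9.46 and 9.49 in the control siRNA arrays. Every COUP-TFII siRNA array was above every control siRNA array, and the control siRNA arrays were the closer together. Ikbkb rose by 0.27 (SE 0.05, adjusted p = 0.0236) and stood at 120.4% of control, with means of 9.74 ± 0.07 in COUP-TFII siRNA cells and 9.47 ± 0.02 in control siRNA cells (SD, n = 3 each). The call was lost under 8 of 15 alternatives, among them with any 1 array left out (adjusted p 0.0576 to 0.0910) and with all probe sets in the fit (0.0668). Chuk, the gene of IKKα, which also serves the branch of the pathway that processes the NFKB2 precursor, read 10.55, 10.55 and 10.55 in the COUP-TFII siRNA arrays, against 10.36, 10.46 and 10.34 in the control siRNA arrays. All COUP-TFII siRNA arrays were higher, and the difference of 0.16 (SE 0.05, adjusted p = 0.111) was not called. Under 2 of 15 alternatives Chuk did pass the threshold, with 0.0373 as the lowest adjusted p of limma. Ikbkg, which encodes the regulatory subunit NEMO, differed by -0.05 (SE 0.05).

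The REL factors themselves were all above the dim level, and 0 of 5 were called. Of their differences 5 of 5 lay above 0 (median 0.10), as did 13524 of all 24032 genes. With arrays centred on their medians, the 5 differences ran from 0.00039 for Nfkb1 to 0.15 for Nfkb2. Nfkb2, which encodes the p100 precursor of p52, had the smallest p of the 5 factors. It read 9.27, 9.16 and 9.37 in the COUP-TFII siRNA arrays, against 9.07, 9.01 and 9.18 in the control siRNA arrays. Control siRNA replicate 3 was above COUP-TFII siRNA replicate 2, so the groups overlapped, and the difference was 0.18 (SE 0.07, adjusted p = 0.196). Rela, the gene of the p65 subunit, differed by 0.11 (SE 0.06), and Relb, the partner of p52, by 0.10 (SE 0.05). For Rel, which encodes c-Rel, the difference was 0.06 (SE 0.06), and for Nfkb1, which encodes the p105 precursor of p50, it was 0.03 (SE 0.04).

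Of the genes of TNF and interleukin 1, 0 of 9 were called. The receptors were above the dim level, with means of 11.26 for Tnfrsf1a, 10.26 for Tnfrsf1b and 8.38 for Il1r1. They differed by -0.02 (SE 0.05), 0.04 (SE 0.05) and 0.05 (SE 0.09) in that order, with intervals within -0.15 to 0.25. All 6 ligands, Tnf, Il1a, Il1b, Il1rn, Il18 and Il33, lay under the dim level. Il1a had the smallest p among these 9 genes and read 5.02, 5.17 and 5.25 in the COUP-TFII siRNA arrays, against 5.18, 4.98 and 4.68 in the control siRNA arrays. Control siRNA replicate 1 lay above the COUP-TFII siRNA replicates 1 and 2, so the groups overlapped, and the difference was 0.20 (SE 0.12, adjusted p = 0.397). The difference of Tnf was 0.08 (SE 0.12), with the widest SE of the 46, and its control siRNA arrays spanned 6.14 to 6.68. Il1b differed by 0.14 (SE 0.08), Il18 by -0.12 (SE 0.08), Il33 by 0.01 (SE 0.05) and Il1rn, the gene of the receptor antagonist, by -0.0018 (SE 0.05).

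Csf1, the macrophage colony-stimulating factor gene, read 11.07, 11.14 and 11.06 in the COUP-TFII siRNA arrays, against 11.10, 11.23 and 11.09 in the control siRNA arrays. The groups overlapped, and the difference was -0.05 (SE 0.05, adjusted p = 0.656). Csf2, the gene of the granulocyte and macrophage factor, differed by -0.05 (SE 0.06) under the dim level.

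Chemokines, the secreted attractants of white blood cells, gave 0 calls among 8, with differences of -0.04 to 0.16 and intervals within -0.20 to 0.34. Ccl5, an attractant of T cells and monocytes, had the smallest p and read 7.29, 7.35 and 7.36 in the COUP-TFII siRNA arrays, against 7.32, 7.01 and 7.19 in the control siRNA arrays. Control siRNA replicate 1 lay above COUP-TFII siRNA replicate 1, so the groups overlapped, and the difference was 0.16 (SE 0.08, adjusted p = 0.295). Cxcl1, an attractant of neutrophils, differed by -0.04 (SE 0.07), and Cxcl12, the ligand of CXCR4, by 0.00 (SE 0.05). The other 5 were under the dim level, with 0.12 (SE 0.07) for the monocyte attractant Ccl2, 0.02 (SE 0.05) for Ccl7, 0.02 (SE 0.05) for Ccl20, 0.08 (SE 0.06) for Cxcl2 and -0.01 (SE 0.06) for Cxcl5.

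The effector genes were not called either. Ptgs2, the gene of the inducible cyclooxygenase, read 6.49, 6.31 and 6.40 in the COUP-TFII siRNA arrays, against 6.46, 6.20 and 6.21 in the control siRNA arrays. Control siRNA replicate 1 lay among the COUP-TFII siRNA arrays, Ptgs2 was under the dim level, and the difference was 0.11 (SE 0.08, adjusted p = 0.508). The adhesion molecule genes Icam1 and Vcam1 differed by 0.03 (SE 0.06) and -0.04 (SE 0.05), and Nos2, which encodes the inducible nitric oxide synthase, by 0.00 (SE 0.07). All 3 were above the dim level, with means of 8.52, 7.26 and 7.35.

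Promoter windows of 250 bases before the start were taken from RefSeq (GRCm38.p6) for 36 of the 46 genes, in 48 windows. Nfkb1, Relb, Nfkbiz, Ikbkb, Cxcl5, Ccl2, Ccl5, Ccl7, Vcam1 and Nos2 had no window in the table. The κB consensus, searched on both strands, was present in 14 of the 48 windows (29.2%) and in 3.90% of all 32851 windows. These belong to 12 genes, Ccl20, Csf1, Cxcl1, Cxcl2, Il1r1, Il6, Nfkb2, Nfkbia, Nfkbie, Rel, Tnfaip3 and Tnip1. Many of the 46 are textbook NF-κB targets. Of these 12 genes 0 were called, with differences of -0.13 to 0.18 and a median of 0.01. Of the 24 genes with a window and no match 2 were called, Lif and Osmr, and the median difference was 0.02. Of all genes 4.63% were called in either direction, so counts this small cannot tell the 2 sets apart. The called genes Nfkbiz and Ikbkb, which have no window, are in neither count. The nuclear receptor core motif AGGTCA, on either strand, was present in 8.33% of the windows of the set and 14.0% of all windows. The STAT-type motif TTCNNNGAA was present in 14.6% and 7.02%.

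The windows printed here are those of the 2 called genes that have one, of the neighbour Lifr, and of Nfkb2 and Tnip1, whose differences were the highest and lowest among genes with a κB match. Each runs 5′ to 3′ on the strand of the gene, and capitals mark matches to any of the 3 motifs. Osmr (chr15:6874314-6874563, minus strand) and Lif (chr11:4257318-4257567, plus strand) hold no match, which says only that these letters are not in these windows. Lifr (first of its windows, chr15:7129322-7129571, plus strand) holds AGGTCA on the other strand at -247. Nfkb2 (first of its windows, chr19:46304487-46304736, plus strand) holds TTCNNNGAA at -148 and κB matches at -39, -38 and -11, the first 2 overlapping. Tnip1 (chr11:54962941-54963190, minus strand) holds TTCNNNGAA at -199 and overlapping κB matches at -58, -57 and -56.
Osmr: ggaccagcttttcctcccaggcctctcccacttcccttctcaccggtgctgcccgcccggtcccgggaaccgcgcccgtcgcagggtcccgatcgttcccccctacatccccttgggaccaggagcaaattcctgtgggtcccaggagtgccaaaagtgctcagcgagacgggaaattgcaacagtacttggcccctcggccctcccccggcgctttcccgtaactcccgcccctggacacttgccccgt
Lif: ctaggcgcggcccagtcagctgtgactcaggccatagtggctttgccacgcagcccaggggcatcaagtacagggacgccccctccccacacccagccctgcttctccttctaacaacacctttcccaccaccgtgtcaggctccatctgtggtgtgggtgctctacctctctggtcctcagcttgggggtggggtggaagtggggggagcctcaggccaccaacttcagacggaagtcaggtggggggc
Lifr: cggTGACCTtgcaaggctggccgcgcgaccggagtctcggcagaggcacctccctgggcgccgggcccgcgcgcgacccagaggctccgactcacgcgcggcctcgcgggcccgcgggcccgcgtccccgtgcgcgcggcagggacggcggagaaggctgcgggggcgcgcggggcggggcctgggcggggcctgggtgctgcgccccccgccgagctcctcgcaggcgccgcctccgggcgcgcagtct
Nfkb2: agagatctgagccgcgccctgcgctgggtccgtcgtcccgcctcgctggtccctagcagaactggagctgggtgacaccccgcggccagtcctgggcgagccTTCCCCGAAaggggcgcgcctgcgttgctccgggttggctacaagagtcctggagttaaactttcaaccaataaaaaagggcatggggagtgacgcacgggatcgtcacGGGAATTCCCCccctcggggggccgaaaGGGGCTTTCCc
Tnip1: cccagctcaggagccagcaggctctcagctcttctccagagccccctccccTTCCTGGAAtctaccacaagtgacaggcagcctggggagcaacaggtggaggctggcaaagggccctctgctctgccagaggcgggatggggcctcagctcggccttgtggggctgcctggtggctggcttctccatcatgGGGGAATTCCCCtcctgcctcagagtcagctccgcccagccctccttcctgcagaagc

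Around the 46 genes, 178 of 186 further genes of these pathways were measured. Of these 5 rose and 5 fell, or 5.62%, close to the 4.63% of all genes. Among 48 upstream components and regulators 3 rose and 0 fell, among 23 JAK, STAT and SOCS genes 0 rose and 1 fell, and among 36 receptors 1 rose and 1 fell. Of 48 other cytokines and chemokines 1 rose and 0 fell, and of 23 other NF-κB targets 0 rose and 3 fell.

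Of the upstream genes, Irak4, the kinase that starts signalling from the interleukin 1 and Toll-like receptors, read 7.71, 7.78 and 7.93 in the COUP-TFII siRNA arrays, against 7.51, 7.51 and 7.47 in the control siRNA arrays. It rose by 0.31 (SE 0.06, adjusted p = 0.0291). Btrc and Fbxw11 encode the paralogous β-TrCP proteins, which recognise IκB once the kinase has marked it, and both rose. Btrc read 10.71, 10.76 and 10.77 in the COUP-TFII siRNA arrays, against 10.50, 10.51 and 10.55 in the control siRNA arrays, a rise of 0.22 (SE 0.05, adjusted p = 0.0302). Fbxw11 read 10.17, 10.20 and 10.21 in the COUP-TFII siRNA arrays, against 9.87, 9.91 and 9.97 in the control siRNA arrays, a rise of 0.28 (SE 0.05, adjusted p = 0.0173). For these 3 genes no array of one group reached into the other.

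Cntfr, the subunit that binds ciliary neurotrophic factor beside gp130 and the LIF receptor, rose by 0.27 (SE 0.06, adjusted p = 0.0341), with means of 10.18 ± 0.07 in COUP-TFII siRNA cells and 9.92 ± 0.05 in control siRNA cells (SD, n = 3 each). Ltb, a membrane-bound cytokine of the TNF family, rose by 0.23 (SE 0.05, adjusted p = 0.0450), with means of 6.97 ± 0.02 in COUP-TFII siRNA cells and 6.74 ± 0.08 in control siRNA cells (SD, n = 3 each). It was the 1 of the 10 whose mean over the 6 arrays, 6.85, was under the dim level.

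Among the falls, Il4ra, the interleukin 4 receptor subunit, fell by 0.36 (SE 0.08, adjusted p = 0.0376), with means of 9.54 ± 0.13 in COUP-TFII siRNA cells and 9.89 ± 0.09 in control siRNA cells (SD, n = 3 each). Stat5a, a STAT factor of the prolactin and cytokine receptors, fell by 0.23 (SE 0.05, adjusted p = 0.0369), with means of 10.62 ± 0.06 in COUP-TFII siRNA cells and 10.85 ± 0.02 in control siRNA cells (SD, n = 3 each). Ier3, an immediate early gene, fell by 0.39 (SE 0.09, adjusted p = 0.0396), with means of 8.29 ± 0.14 in COUP-TFII siRNA cells and 8.68 ± 0.13 in control siRNA cells (SD, n = 3 each). Plau, which encodes urokinase, fell by 0.39 (SE 0.08, adjusted p = 0.0291), with means of 9.46 ± 0.06 in COUP-TFII siRNA cells and 9.85 ± 0.16 in control siRNA cells (SD, n = 3 each). Ptges, the inducible prostaglandin E synthase that acts after cyclooxygenase, fell by 0.27 (SE 0.06, adjusted p = 0.0384), with means of 7.28 ± 0.04 in COUP-TFII siRNA cells and 7.55 ± 0.09 in control siRNA cells (SD, n = 3 each). None of these 10 genes kept its call with every array left out in turn. Of the 10, 1, 0 and 1 were called without COUP-TFII siRNA replicates 1, 2 and 3, and 2, 3 and 1 without control siRNA replicates 1, 2 and 3. Adjusted p ranged from 0.0694 to 0.147 when COUP-TFII siRNA replicate 2 was left out.

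**Figure D4:**
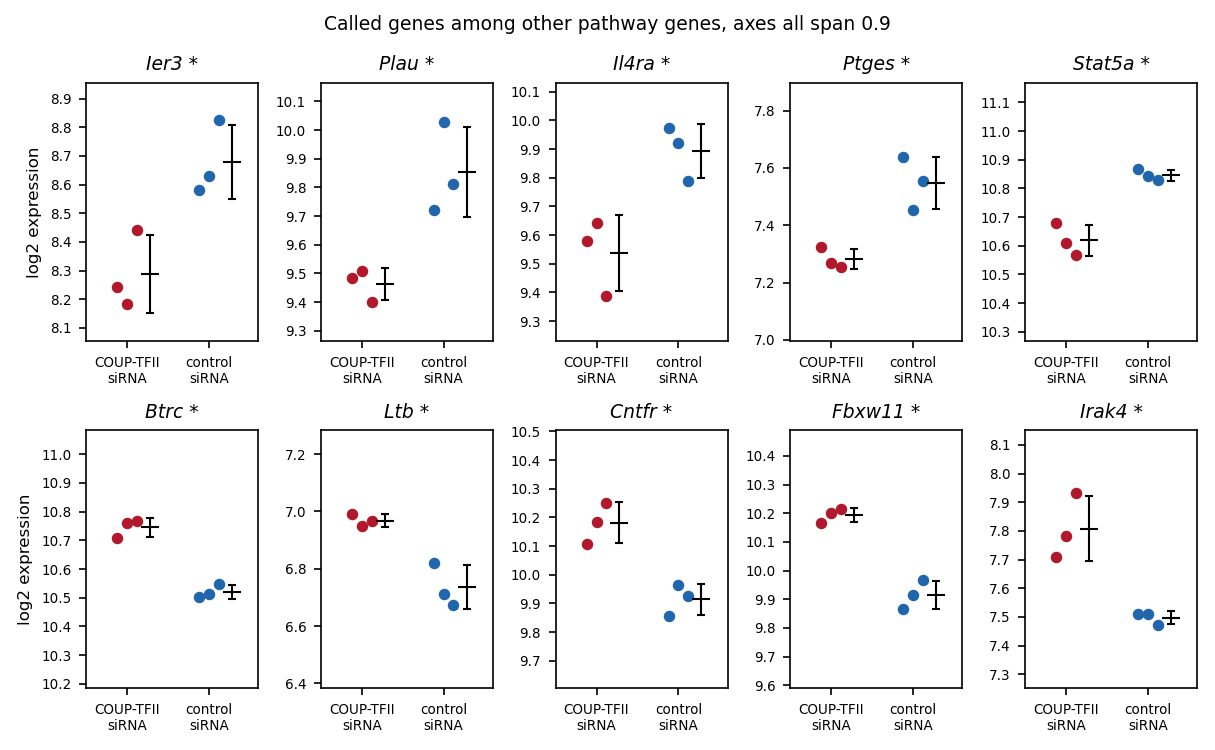
Log2 expression (vertical axes, each spanning 0.9) on each array for the 10 called genes among 178 further pathway genes, COUP-TFII siRNA in red and control siRNA in blue; bars are mean ± SD of 3 arrays. The upper panels show the 5 genes that fell and the lower panels the 5 that rose. No panel has overlapping groups, but the genes were picked by their call on the same arrays, which favours separation.

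Of the 46 genes, the authors' deposited table of 334 changed probe sets lists Osmr alone, at 72.7% of control with an unadjusted p of 0.000464, where every listed p is at or below 0.00995 and every fold at least 1.3. The authors' deposited table of all probe sets gives 79.9% of control for Lif (unadjusted p = 0.00139). It gives 77.1% for Nfkbiz (unadjusted p = 3.32e-05) and 121% for Ikbkb (unadjusted p = 0.000278). All 3 lie under the fold limit of the list. The smallest design that the sums of squares of this table allow has 12 arrays in 4 groups, against 6 arrays in 2 groups for the list. Its values need not come from the 6 arrays used here alone. Its p-values cannot be set against the p limit of the list, and for Osmr it gives an unadjusted p of 9.53e-05.

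**Figure D5:**
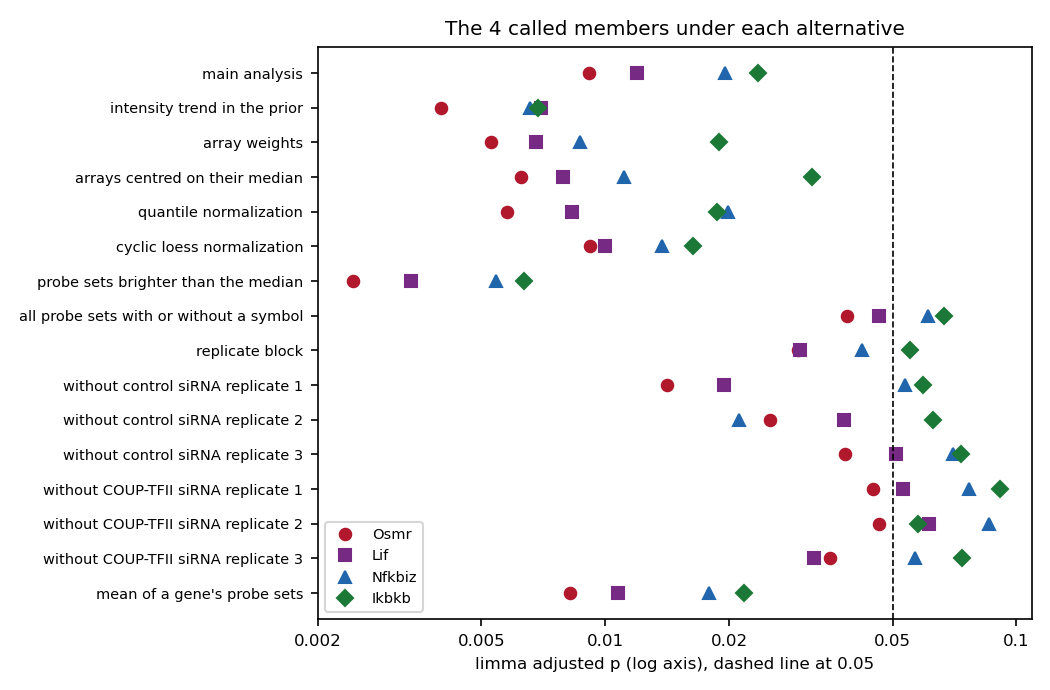
Adjusted p of limma (horizontal axis, log scale, dashed line at 0.05) for the 4 called genes under the main setting and 15 alternatives (vertical axis). Osmr lies left of the line throughout, Lif crosses it in 3 settings, Nfkbiz in 6 and Ikbkb in 8.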

How the data were processed

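Total RNA of 6 MA-10 cultures was measured on Affymetrix arrays. The submitters' processing notes name Partek 7.0, and the method behind the normalization is not given in the sources used here. As deposited by the authors, the value table is on a log2 scale and normalized, with 35556 probe sets between 3.15 and 14.3. Of these 26836 carry a gene symbol, 1382 of them several. The authors' deposited tables also give a linear ratio and an unadjusted p-value per probe set, which were only quoted.

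Probe sets with a symbol were fitted with limma 3.58.1 (lmFit and eBayes) in R 4.3.3, group only, on all 6 arrays, with Benjamini-Hochberg adjustment over 26836 probe sets and a threshold of 0.05. Differences are COUP-TFII siRNA minus control siRNA in log2, and intervals are 95%. The number of arrays limits the precision. Over all probe sets 426 were higher and 783 lower, so 35.2% of calls were higher. After centring each array on its median 308 were higher and 1184 lower, so 20.6% were higher.

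The 46 genes, the other pathway lists and the marker lists were chosen with earlier results of these data known. Values per array are given for genes called, genes with an unadjusted p under 0.05 and the smallest p of each role, and for the called other pathway genes, as arrays or as means. Genes without a probe set of their own symbol alone (Tlr5, Ticam2, Irak1, Rnf31, Jak3, Tnfsf12, Tnfsf13, Cntf and Insl3) were not analysed here. T cell, endothelial, Sertoli, and fibroblast and peritubular markers gave 0 calls, and of 2 germ cell markers Ddx4 was lower. Promoter windows are RefSeq's for GRCm38.p6.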

Additional observations from a re-analysis of the deposited data

How the results depend on the processing

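Of the 46 genes, 1 was higher and 3 lower. With an intensity trend in the prior 4 were higher and 4 lower. Among brighter probe sets 4 were higher and 4 lower, of the 26 genes that remained. With array weights, quantile or cyclic loess normalization 2 each were higher, with all probe sets 0 and with the replicate block 0. Leaving out 1 array gave 0 to 1 higher and 1 to 3 lower. Among the other pathway genes, 5 were higher and 5 lower, against 0 and 0 with all probe sets, and 2 were higher with the replicate block. There 9 were lower with the trend, 8 with array weights, 8 after median centring and 12 among brighter probe sets, and leaving out 1 array gave 0 to 1 higher and 0 to 2 lower. Over all probe sets 1209 were called, against 2132 with the trend, 2375 among brighter ones, 436 with all probe sets, 711 with the replicate block and 306 to 737 with 1 array left out, the lowest without COUP-TFII siRNA replicate 2. The fits with fewer arrays or more probe sets differ from the main one in those numbers, and the cause of the other shifts was not tested. Arrays with the same replicate number deviated together by correlations of 0.108, -0.048 and 0.172, so the numbers were not taken to pair the cultures. Control siRNA replicate 1 correlated best with COUP-TFII siRNA replicate 2, at 0.128. With the replicate block Ikbkb was not called (limma adjusted p = 0.0551), while Osmr, Lif and Nfkbiz were. Nr2f2 and Osmr were called under all 15 alternatives.

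The sign of 17 uncalled genes changed under some alternative, none of them called there (lowest adjusted p 0.504). Array weights gave -0.036 for Nfkbia, -0.068 for Nfkbie, 0.019 for Il1rn, -0.019 for Icam1 and -0.035 for Nos2. Median centring, quantile and cyclic loess normalization in that order gave -0.027, -0.028 and -0.026 for Nfkbie, -0.023, -0.021 and -0.021 for Il33, -0.029, -0.029 and -0.030 for Cxcl12, -0.014, -0.020 and -0.018 for Ccl7, -0.012, -0.023 and -0.017 for Ccl20, and -0.030, -0.033 and -0.027 for Nos2. Centring gave -0.0041 for Icam1. With 1 array left out the range was -0.026 to 0.053 for Ccl20, -0.0074 to 0.043 for Ccl7, -0.10 to 0.0049 for Cxcl1, -0.033 to 0.039 for Cxcl12, -0.068 to 0.019 for Cxcl5, -0.013 to 0.079 for Icam1, -0.034 to 0.17 for Il11 and -0.011 to 0.14 for Il1r1. It was -0.037 to 0.027 for Il1rn, -0.012 to 0.040 for Il33, -0.039 to 0.0018 for Il6ra, -0.041 to 0.13 for Nfkbia, -0.068 to 0.091 for Nfkbie, -0.042 to 0.057 for Nos2, -0.013 to 0.071 for Socs3, -0.090 to 0.18 for Tnf and -0.063 to 0.0091 for Tnfrsf1a.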
